A study of Mus musculus with 4 samples.

Results

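RAW264.7 is an established mouse macrophage-like line derived from a tumour induced by Abelson leukaemia virus. The state described here is that line at rest, after a non-targeting control siRNA and DMSO, the solvent used as vehicle in place of lipopolysaccharide (LPS). It was measured on 1 array of 4 in the series. The other 3 arrays held control siRNA with LPS, siRNA against Ruvbl2 with DMSO and siRNA against Ruvbl2 with LPS. The series asks what RUVBL2, an ATPase of chromatin remodelling and chaperone complexes, does in the proinflammatory response to LPS. All 4 groups had been transfected, so none of them represents untreated cells. Per the labels' protocols the cells were analysed 2 days after transfection by electroporation or with a lipid reagent, and which was used here is not stated. The duration of DMSO is not given in the sources used here. Because the group was 1 array of 1 culture, no replicate error, test or p-value exists for any value below, and precision is limited by having a single array.

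Macrophages are tissue phagocytes that depend on colony-stimulating factor 1 and its receptor, and on the transcription factor PU.1, for their identity. They carry receptors for microbial products, antibodies, complement, modified lipids and dying cells, and they digest what they engulf in lysosomes. At rest they hold this machinery ready, while most inflammatory cytokine genes wait for a signal such as LPS, which Toll-like receptor 4 senses together with CD14 and MD-2.

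Total RNA was labelled with Cy3 and hybridized in 1 colour to an Agilent mouse array with 62976 spots, of which 59305 held probes for RNA. These were 56605 distinct probes. All of them were ranked by the level, defined as log2 of the processed signal after the array's 75th percentile was subtracted, so that a level of 0 is a signal of 456 and a level of 3 a signal of 3651. Levels ran from -7.36 to 10.44, and no spot was saturated. A RefSeq accession gave 32994 probes a gene symbol, which came to 22911 genes, each represented by its brightest probe on this array. Of these genes 13175 (57.5%) were called well above background by the scanner software. A gene so called was placed in the high band at a level of 3 or more (4115 genes, 18% of all), in the moderate band from 0 to 3 (4521 genes) and in the low band below 0 (4539 genes). The other 9736 genes were not well above background, which sets an upper bound on their signal and does not show that the transcript was missing. Brightness also depends on the sequence of a probe, so the order of genes is an order of signal and not of transcript number, and no ratio between genes is given.

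**Figure D1:**
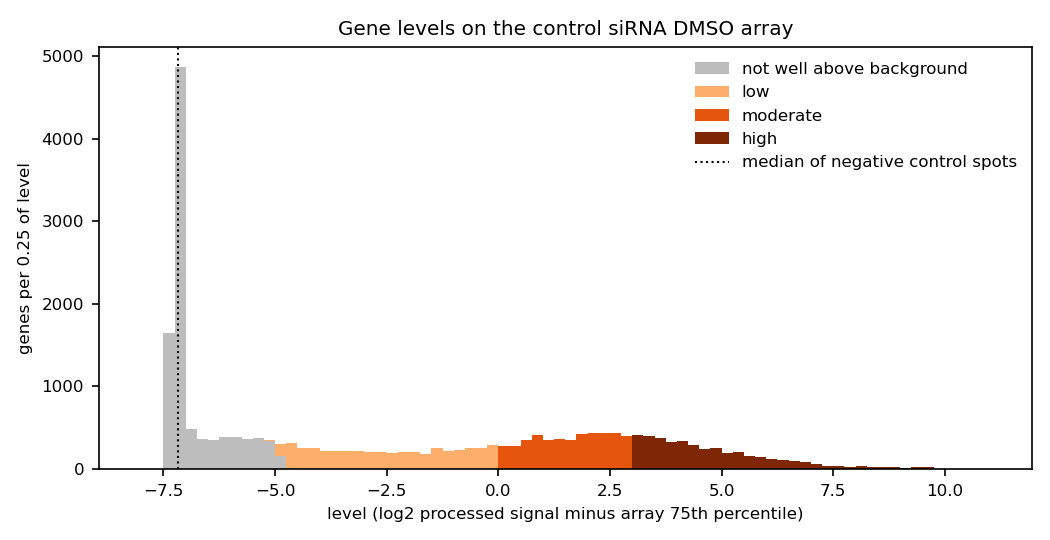
Number of named genes in each step of 0.25 of the level (log2 scale, 0 at the 75th percentile of all RNA probes) on the control siRNA DMSO array, stacked by band. Genes not well above background pile up at the median of the 308 negative control spots, -7.17, and the well-above-background genes spread up to 10.18 around a median of 1.51.

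The level of all 22911 genes had a median of -3.12. Genes well above background had a median of 1.51, and those not well above background a median of -7.10, beside -7.17 for the 308 negative control spots, of which 1 was called. The dimmest called gene was Ly6h at -5.15 and the brightest uncalled gene Mrgprx2 at -4.67, so levels between about those values could carry either call. Probes printed many times gave the error of 1 spot. Its SD was 0.05 at levels from 7 to 11 (248 probes), 0.06 from 3 to 7 (20 probes), 0.10 from 0 to 3 (4 probes), 0.19 from -4 to -2 (6 probes) and 0.44 from -6 to -4 (9 probes). This is error within the array and holds no variation between cultures.

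Different probes of a gene differed by far more than that error. The 7899 genes with several probes had a median range of 2.21 between their brightest and dimmest probe, with quartiles of 0.76 and 3.98. All probes of a gene fell in the same band for 3702 of these genes (46.9%). Of the 2087 high genes with several probes, 441 (21.1%) had all of them high and 84 (4.02%) had at least 1 that was not well above background. Of the 400 genes with several probes in the gene lists used below, 218 (54.5%) had probes in more than 1 band. Taking the brightest probe places a gene as high as any of its probes allows. The levels of other probes are given for part of the named genes, and a level printed alone does not mean that the gene's probes lay in the same band.

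**Figure D2:**
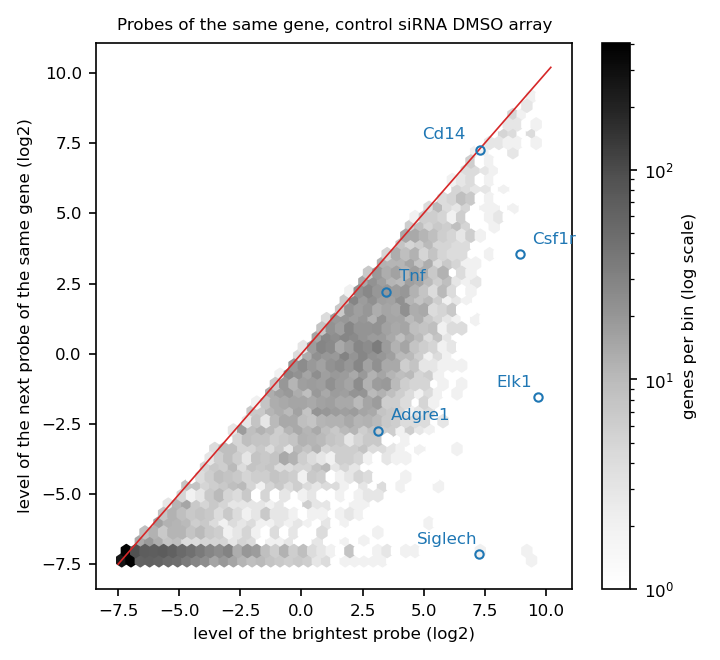
Level of the brightest probe (x axis, log2) against the next probe of the same gene (y axis, log2) for the 7899 genes with several probes, as the number of genes per hexagon, with the diagonal in red. Cd14 lies on the diagonal at 7.32 and 7.26, while Siglech (7.28 and -7.14) and Elk1 (9.68 and -1.54) lie far below it.

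The label of the cells was checked against marker genes. All 10 macrophage markers listed for this check were well above background, 7 of them high. The colony-stimulating factor 1 receptor gene Csf1r read 8.93, brighter than 99.7% of the named genes, and its other probe 3.54. Cd14, the LPS co-receptor, read 7.32 and 7.26 with its 2 probes. The lysozyme gene Lyz2 read 7.05, the endosomal glycoprotein gene Cd68 6.97 and the pore-forming perforin-2 gene Mpeg1 5.78. Adgre1, which encodes the F4/80 antigen, read 3.15 with a second probe at -2.74, and Itgam, the alpha chain of complement receptor 3 (CD11b), 3.44 with a second probe at -2.17. The remaining markers lay in the moderate band: the high-affinity IgG receptor gene Fcgr1 at 2.73, the PU.1 gene Spi1 at 1.41 and the actin-binding protein gene Aif1 at 1.11.

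Defining markers of other cell types were mostly not well above background, although 4 of 6 T cell markers and 2 of 4 neuron markers were called. No marker of hepatocytes (0 of 3) was called. In each of the lists for NK cells, mast cells and basophils, fibroblasts and epithelium 1 marker was called, namely Prf1 at -1.03, Tpsb2 at -3.19, Col1a2 at -4.41 and Krt18 at -4.73, all low. In each of the lists for B cells, endothelium, red cells and megakaryocytes, and neutrophils 2 markers were called, again all low. For neutrophils these were Elane at -0.56 and Camp at -4.49, while Mpo, Ltf, Ngp, S100a8 and S100a9 were not well above background. Another 5 such markers lay in the moderate or high band, each by 1 of 2 discordant probes. Siglech of plasmacytoid dendritic cells read 7.28 with 1 probe and -7.14, not well above background, with the other. The dendritic cell marker Clec9a was called in the low band at -4.22. Snap25 of neurons read 2.55 and -7.34, and the neuron marker Tubb3 was low at -2.08. Among the T cell markers 4 of 6 (66.7%) were called, beside 57.5% of all named genes. Cd4, Lck and Cd3e were moderate at 1.33, 0.65 and 0.14, and their other probes lay at -4.51, -4.37 and -2.85. Cd3d was low at -3.65, and Cd3g and Cd8a were not well above background. Which probe of a discordant pair reports the transcript was not tested.

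The brightest genes were mostly those of protein synthesis, chromatin, glycolysis and the cytoskeleton. S100a4, a calcium-binding protein of motile cells, read 10.18, the brightest named gene. Of the top 30 genes, 9 were ribosomal proteins or ubiquitin fusions to them (Rps18 9.78, Fau 9.75, Rpl37a 9.65) and 9 were H2A histone genes (H2ac12 9.93, H2aj 9.64). The replication-dependent H2A genes are near-identical copies, so their probes may read each other's transcripts, and they cannot be counted as separate genes here. The prolyl isomerase gene Ppia read 9.79, the glycolytic genes Aldoa and Pgk1 9.70 and 9.68, the beta-actin gene Actb 9.63 and the tubulin gene Tuba1b 9.55. Outside these classes lay Kctd14 at 9.72, Glrx2 at 9.70 with a second probe at 4.32, and Exosc2 at 9.66. Of 11 genes in the top 30 with several probes, 4 had another probe more than 8 below. These were the ETS factor gene Elk1 (9.68 against -1.54), the Mediator subunit gene Med16 (9.57 against -0.84), Ttc38 (9.53 against -2.46 and -4.75) and the ubiquitin-ribosomal fusion gene Rps27a (9.76 against -1.83). For these 4 genes the array does not settle the level.

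Among 28 general macrophage marker genes, 21 were high (75%, beside 18% of all genes), 4 moderate, 2 low and 1 not well above background. Their median level was 6.31, beside -3.12 over all genes. All the check markers given above except Spi1 were also in this list, so it is not a separate check of identity. Both lists were chosen with earlier results of these data known. Lgals3, the galectin-3 gene, read 8.28 and 7.71 with its 2 probes. The ITAM adaptor genes Fcer1g and Tyrobp, whose products couple activating receptors to the kinase SYK, read 7.88 and 7.52. Trem2, a lipid-sensing receptor that signals through TYROBP, read 7.03. The cysteine protease gene Ctss read 7.22, and the actin regulator gene Coro1a 7.03. Cx3cr1, the fractalkine receptor used as a marker of microglia and patrolling monocytes, read 6.82 and 4.54. Ccr2, the receptor that draws inflammatory monocytes from the blood, was low at -4.16. Mertk, a receptor kinase for engulfing dying cells, was not well above background.

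The start region of Ctss is shown because its letters include GAGGAAGT, the ETS motif form that PU.1 prefers. This sequence and those printed further on are from RefSeq promoters (GRCm38.p6), written 5′ to 3′ on the gene's strand with the matches in capitals, from 50 bases before the first match to at most 50 after the last and no further than 30 bases past the transcript start. In Ctss the match begins 2 bases before the start and reads on the opposite strand.
Ctss, chr3:95526734-95526815, plus strand: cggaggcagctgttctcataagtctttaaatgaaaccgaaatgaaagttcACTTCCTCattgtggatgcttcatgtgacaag

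**Figure D3:**
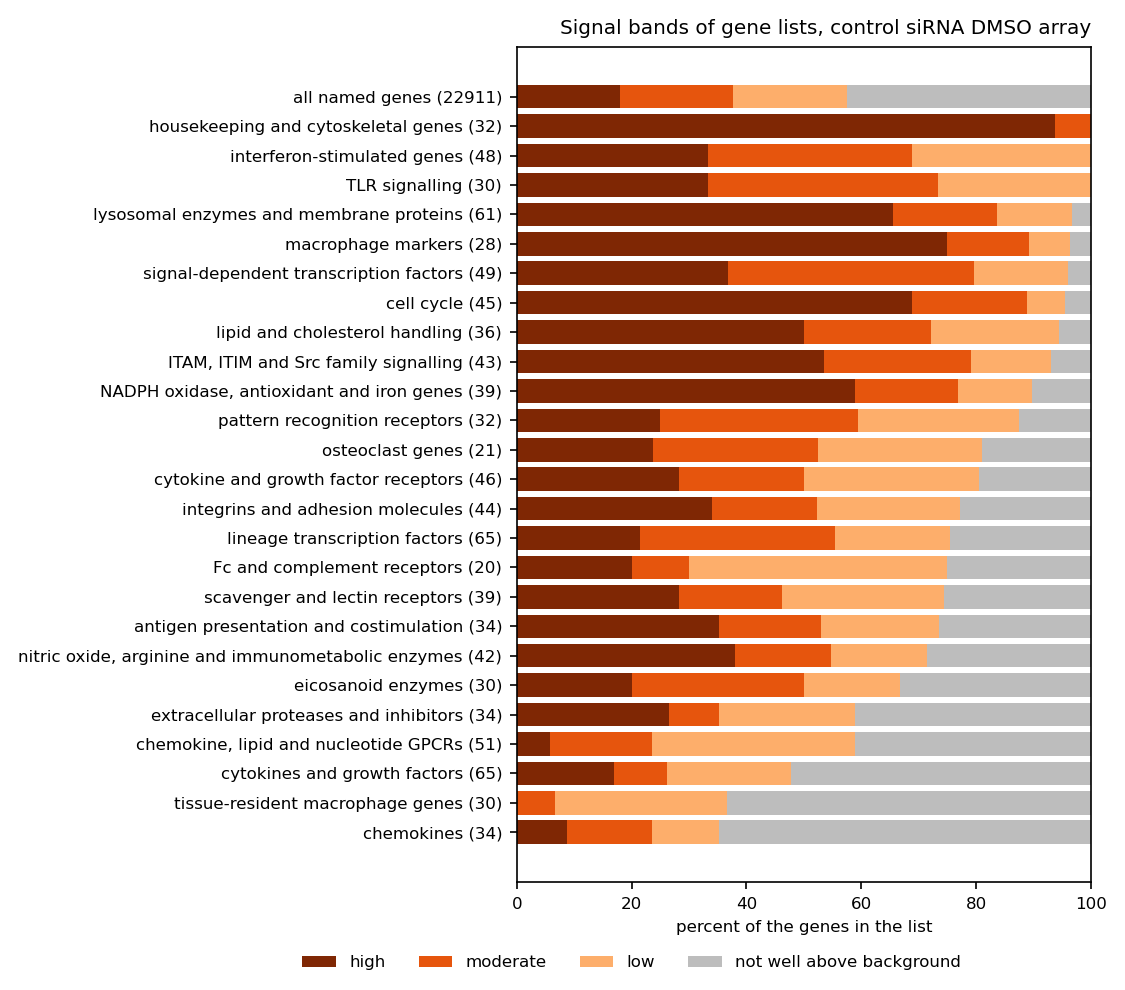
Share of the genes of each list (x axis, percent) in the 4 bands on the control siRNA DMSO array, ordered by the share well above background, with the number of genes in parentheses and all named genes at the top. Against 18% high and 57.5% well above background over all genes, macrophage markers were 75% high, and chemokines were 35.3% well above background.

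Receptors that sense microbial products were mostly present at moderate or low signal. Of 32 pattern recognition genes 28 were well above background (87.5%, beside 57.5% of all named genes). They were 8 high (25% of the list, beside 18%), 11 moderate and 9 low, with a list median of 0.68. The Toll-like receptors spread over all 4 bands. Tlr2, the receptor for bacterial lipoproteins, was high at 5.34. Its partners Tlr1 and Tlr6 lay at 0.26 and 0.38. Tlr4, the LPS receptor, was moderate at 1.89 with a second probe at -2.38, and its co-receptor Ly96 (MD-2) at 2.77 with a second probe at -2.20. The endosomal nucleic acid sensors Tlr7, Tlr13 and Tlr9 were moderate at 2.78, 2.47 and 0.75, and Unc93b1, which carries them to the endosome, was high at 4.74. A further probe of Tlr7 was not well above background (-5.68). Tlr3, the sensor of double-stranded RNA, was low at -4.17. Tlr5, Tlr8, Tlr11 and Tlr12 were not well above background.

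Cytosolic sensors lay in the high, moderate and low bands. The DNA sensor gene Cgas read 4.59 with a second probe at 0.94, and its adaptor gene Sting1 3.19. Ddx58, which encodes the RNA sensor RIG-I, read 3.45 with its brightest of 4 probes, and the others ran from 1.37 down to -3.00. Ifih1, which encodes MDA5, read 0.62. Casp1, the inflammasome protease, was high at 3.97. Casp4, the protease that binds intracellular LPS, was moderate at 2.71, as was the DNA-sensing inflammasome gene Aim2 at 1.48. The sensor gene Nlrp1b read 1.76, with other probes at -0.50 and, not well above background, -7.19. Low inflammasome genes were the scaffold Nlrp3 at -1.97, the adaptor Pycard (ASC) at -1.40, Nlrc4 at -2.90 and the pyrin gene Mefv at -3.30. The peptidoglycan sensors Nod2 and Nod1 were low at -0.64 and -4.46.

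All 30 genes of the signalling chain below the Toll-like receptors were well above background, beside 57.5% of all named genes. Of these 10 were high (33.3%, beside 18%), 12 moderate and 8 low (median 2.01). Myd88, the adaptor shared by most of these receptors, read 4.32, while Ticam1 (TRIF), the adaptor of the interferon branch, read 1.36 and its bridging adaptor Ticam2 (TRAM) -4.43. The ubiquitin-conjugating enzyme gene Ube2n was high at 4.97, the ubiquitin ligase gene Traf3 at 3.93 and the kinase gene Map3k7 (TAK1) at 3.23, with other probes of Map3k7 at 0.36 and -0.91. Irak1 and Irak4, kinases of the receptor complex, read 2.26 and -0.30, and Traf6, the ligase they act through, -0.57. With the median over a gene's probes in place of the brightest, 5 members of this list were high.

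Fc and complement receptor genes were called more often than all named genes and were high about as often. Of 20 genes 15 were well above background (75%, beside 57.5%), 4 high (20%, beside 18%), 2 moderate and 9 low (median -1.26). The signalling chain gene Fcer1g was high, and the genes of the ligand-binding IgG receptors were moderate or low, with Fcgr1 at 2.73, Fcgr3 at -0.91, the inhibitory Fcgr2b at -1.08 and Fcgr4 at -2.53. The integrin beta chain gene Itgb2 read 3.31 and its alpha chains Itgam and Itgax 3.44 and -0.66. The anaphylatoxin receptor genes C5ar1 and C3ar1 read 0.80 and -1.37. Vsig4, a complement receptor of resident macrophages, and the decay-accelerating factor gene Cd55 were not well above background.

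Scavenger and lectin receptors spanned the whole scale, with 11 of 39 genes high, 7 moderate, 11 low and 10 not well above background (median -0.90). In this list 74.4% were called and 28.2% high, beside 57.5% and 18% of all named genes. The galectin genes Lgals3 and Lgals1 read 8.28 and 7.57. Among C-type lectins, Clec4d, Clec12a, Clec5a and Clec4e (Mincle), which respond to fungal or mycobacterial lipids, dead cells or viruses, read 6.48, 5.64, 4.71 and 3.40. Mgl2, a galactose-binding lectin, read 7.23 with 1 probe and -6.66, not well above background, with the other. The lipoprotein scavengers Lrp1, Scarb1, Msr1 and Cd36 read 4.59, 3.07, 2.14 and 1.20. Marco was low at -4.69, and Siglec1 at -3.02. The mannose receptor gene Mrc1, the haemoglobin scavenger gene Cd163, the apoptotic cell receptor gene Timd4 and Mertk were not well above background, while the related kinase gene Axl was low at -1.16.

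**Figure D4:**
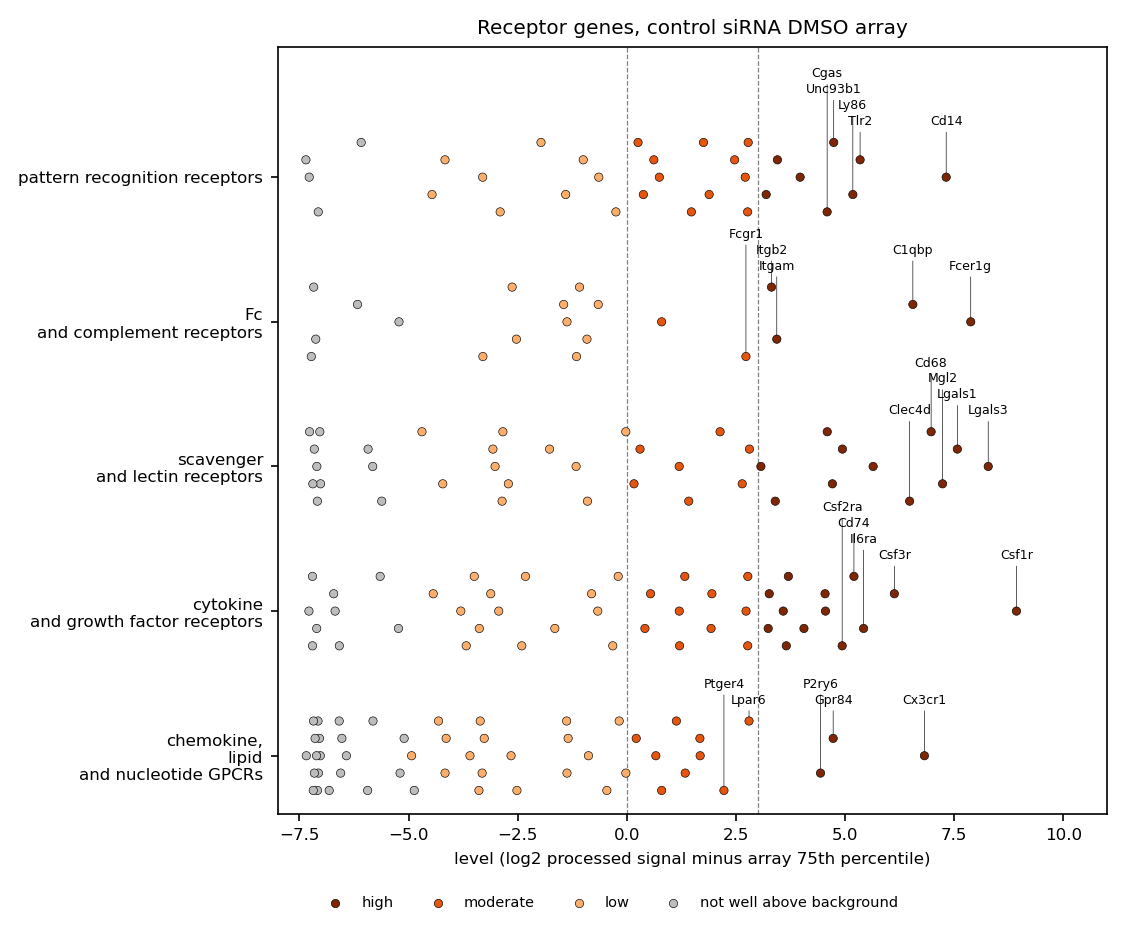
Level of each gene (x axis, log2 scale, 0 at the 75th percentile of all RNA probes) in 5 receptor lists on the control siRNA DMSO array, coloured by band, with dashed lines at 0 and 3 and the 5 brightest genes of each list named. Points are offset vertically for legibility. Csf1r reaches 8.93, and 3 of 51 G protein-coupled receptor genes (5.88%) are high, beside 18% of all named genes.

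Growth factor and cytokine receptors numbered 46, of which 13 were high, 10 moderate, 14 low and 9 not well above background (median 0.11). As shares 80.4% were called and 28.3% high, beside 57.5% and 18% of all named genes. The myeloid growth factor receptors included Csf1r at 8.93, the G-CSF receptor gene Csf3r at 6.13 and the GM-CSF receptor alpha chain gene Csf2ra at 4.93. The common beta chain gene Csf2rb was moderate at 1.95. Both chains of several receptors were called. The IL-10 receptor genes Il10rb and Il10ra read 3.65 and 1.93, with another probe of Il10ra at -0.85. The type I interferon receptor genes Ifnar2 and Ifnar1 read 3.58 and 2.73, with other probes of Ifnar2 at 2.77 and of Ifnar1 at -0.14 and -2.22. The interferon gamma receptor genes Ifngr2 and Ifngr1 read 3.70 and 3.26. The TGF-beta receptor genes Tgfbr2 and Tgfbr1 read 4.55 and 0.41. Tnfrsf1a and Tnfrsf1b, the TNF receptors, read 4.06 and -1.65, in the high and the low band. Il6ra, the IL-6-binding chain, read 5.42 with a second probe at -0.19, and the signalling chain gene Il6st 1.20. The IL-4 receptor gene Il4ra was low at -2.41. Il1r1, Il1r2, Osmr and Kit were not well above background.

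G protein-coupled receptors for chemokines, lipids and nucleotides were seldom high but were called about as often as all genes. Of 51 genes 3 were high, 9 moderate, 18 low and 21 not well above background (median -3.59). Well above background were 58.8%, beside 57.5% of all named genes, while 5.88% were high, beside 18%. The high ones were Cx3cr1 at 6.82, the medium-chain fatty acid receptor gene Gpr84 at 4.73 and the UDP receptor gene P2ry6 at 4.44. The prostaglandin E2 receptor gene Ptger4 was moderate at 2.22, and its relatives Ptger1, Ptger2 and Ptger3 were not well above background. The ATP-gated channel genes P2rx4 and P2rx7, listed with this group, read 1.68 and 0.21. Among chemokine receptors, Cxcr3 was moderate at 1.34, Ccr2 and Ccr9 were low, and Ccr1, Ccr3, Ccr7, Cxcr2 and Cxcr4 were not well above background. The formyl peptide receptor gene Fpr2 was low at -4.14, and Fpr1 was not well above background.

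Genes that carry signals from ITAM and ITIM receptors were mostly high or moderate. Of 43 genes 23 were high (53.5%, beside 18% of all named genes), 11 moderate, 6 low and 3 not well above background (median 3.19). The called share was 93%, beside 57.5%. Src family kinases differed. Lyn was high at 5.53, Fgr was moderate at 0.14, Fyn low at -1.51, and Src and Blk were not well above background. Syk, the kinase recruited to phosphorylated ITAMs, was moderate at 1.78. Below it, the guanine exchange factor gene Vav1 read 5.77, the phospholipase gene Plcg2 5.82 and the kinase gene Btk was also high, with a second probe at 0.25, whereas Plcg1 was low at -4.10. High inhibitory genes were the phosphatase gene Ptpn6 (SHP-1) at 5.75, the CD47 receptor gene Sirpa at 5.45, Lilrb4a at 5.50 and the lipid phosphatase gene Inpp5d (SHIP1) at 3.52, while Dok1 and Pirb were moderate at 2.60 and 2.57. The start region of Vav1 is shown for its PU.1-type motif, in capitals, which begins 11 bases before the start.
Vav1, chr17:57279039-57279129, plus strand: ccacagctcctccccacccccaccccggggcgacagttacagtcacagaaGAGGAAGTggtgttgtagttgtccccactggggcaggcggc

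Transcription factors of lineage and identity included 14 of 65 high (21.5%, beside 18% of all named genes). Another 22 were moderate, 13 low and 16 not well above background (median 1.14), so 75.4% were called, beside 57.5%. Nr1h3, the oxysterol receptor LXR alpha, was brightest at 6.55 and 5.19 with its 2 probes. The lysosomal gene regulators Tfe3 and Mitf read 4.96 and 4.38, although the second probe of Tfe3 lay at -2.69 and other probes of Mitf at 2.79 and 2.16, and Tfeb read 0.27. The C/EBP family genes Cebpb, Cebpd, Cebpe and Cebpa read 4.54, 3.79, 2.05 and 1.27. The interferon regulatory factor genes Irf5 and Irf8 were high at 4.01 and 3.37, and Irf4 was low at -4.16. The ETS and Runt factor genes Ets2, Fli1, Runx1 and Spi1 read 3.61, 2.46, 2.89 and 1.41. The Krüppel-like factor genes Klf4, Klf6 and Klf2 read 3.73, 3.68 and 1.91. Pparg, the lipid-activated receptor of alveolar macrophages, was low at -1.76. Not well above background were Maf, Gata6, Spic and Sall1, which mark resident macrophages of particular tissues, and the factors of other blood lineages Gata1, Gata2, Ebf1, Tcf7 and Bcl11b. The lymphoid factors Gata3 and Pax5 were called in the low band at -1.64 and -3.52.

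Signal-dependent transcription factors were nearly all well above background, 47 of 49 (95.9%, beside 57.5% of all named genes). Of the list 18 were high (36.7%, beside 18%), 21 moderate and 8 low (median 2.25). The stress factors Atf4 and Xbp1 read 7.68 and 6.69. Within the NF-kB family, the transactivating subunit gene Rela read 5.13 with a second probe at -2.23, while Nfkb2, Relb, Nfkb1 and Rel read 2.00, 1.72, 0.83 and -2.54. The inhibitor genes Nfkbia, Nfkbid and Nfkbie read 5.58, 4.34 and 0.79. AP-1 genes were present without LPS, with Junb at 5.31 and -0.90, Jund at 4.78, Jun at 3.73 and Fos at 3.24, and with Fosl1 and Fosb low at -0.95 and -3.47. Irf7, the amplifier of the interferon response, read 6.24, Irf3 4.97 and Irf1 2.78, and their second probes 1.46, 0.48 and -1.93. The STAT genes Stat3, Stat6 and Stat2 read 3.09, 2.52 and 2.42, and Stat4 was not well above background. Hif1a, the oxygen-sensing factor, was high at 3.51, and its relative Epas1 low at -3.42.

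Cytokine genes were called somewhat less often than all named genes at rest, and were high about as often. Of 65 cytokine and growth factor genes 34 were not called, 14 were low, 6 moderate and 11 high (median -5.07). Well above background were 47.7%, beside 57.5% of all named genes, and 16.9% were high, beside 18%. The brightest were the genes of the lysosomal glycoprotein progranulin (Grn 8.96), the macrophage migration inhibitory factor (Mif 8.63), osteopontin (Spp1 7.48) and the chromatin protein HMGB1 (Hmgb1 5.66), with a further probe of Grn at 2.29. Tnf was also high, at 3.47 with a second probe at 2.21. Il18, which is stored as a precursor, read 3.02, and the shared IL-27 and IL-35 subunit gene Ebi3 3.85. The platelet-derived growth factor genes Pdgfb and Pdgfa read 3.84 and 3.27. Tgfb1 was moderate at 2.76, as were Igf1 at 2.28 and the IL-1 antagonist gene Il1rn at 0.69, and the second probes of Tgfb1 and Il1rn were low at -0.41 and -2.74. Il10 and Il12b were called near the edge of detection at -4.62 and -4.73. Il1b read -5.12 and -6.59 and Il6 -7.11 and -7.24, none of these probes well above background, and Il1a, Il12a, Il23a, Ifnb1, Ifng, Csf1, Csf2 and Csf3 were not called either. Under the more lenient call of the scanner software, positive and significant signal, 48 of the 65 genes passed in place of 31.

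Chemokine genes were mostly not well above background. Of 34 genes 3 were high, 5 moderate, 4 low and 22 not well above background (median -6.95). Well above background were 35.3%, beside 57.5% of all named genes, and 8.82% were high, beside 18%. The high ones were the CC chemokine genes Ccl9 at 6.26, Ccl3 at 4.11 and Ccl4 at 3.74 and 3.03. Cxcl16, a membrane-bound chemokine that is also a scavenger receptor, read 2.64, and Cxcl10, an interferon-induced attractant of T cells, 2.50. Ccl5 was moderate at 0.24. Ccl2, which recruits monocytes, was low at -0.69, as was the neutrophil attractant Cxcl2 at -2.73. Ccl7, Ccl17, Ccl22, Ccl24, Cxcl1, Cxcl3, Cxcl9 and Cxcl12 were among those not well above background.

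**Figure D5:**
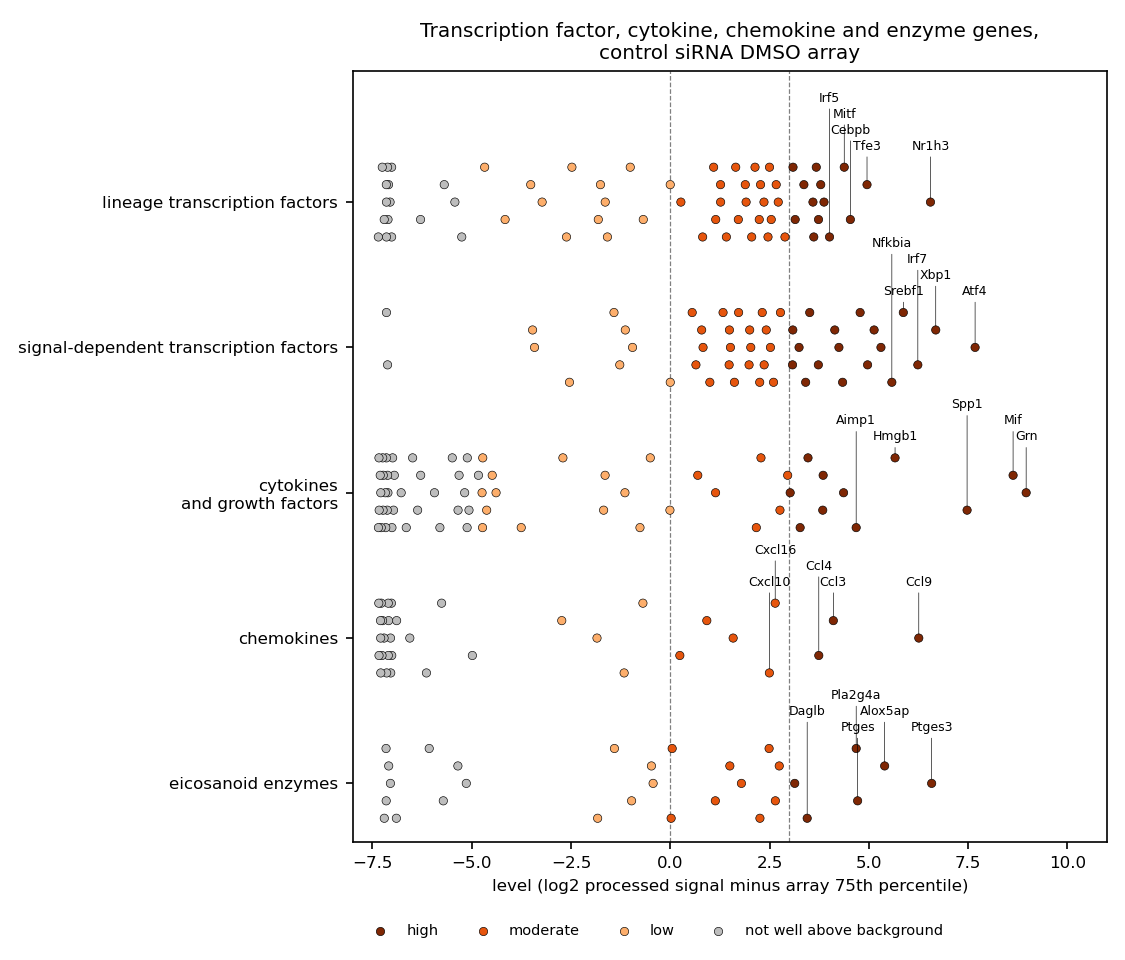
Level of each gene (x axis, log2 scale, 0 at the 75th percentile of all RNA probes) in lists of transcription factors, cytokines, chemokines and eicosanoid enzymes on the control siRNA DMSO array, coloured by band, with dashed lines at 0 and 3 and the 5 brightest genes of each list named. Points are offset vertically for legibility. Of 65 cytokine genes 34 and of 34 chemokine genes 22 are not well above background, beside 42.5% of all named genes. Of 49 signal-dependent transcription factor genes 47 are well above background.

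Lysosomal genes were among the brightest groups. Of 61 genes 40 were high (65.6%, beside 18% of all named genes), 11 moderate, 8 low and 2 not well above background (median 3.94). Called in all were 96.7%, beside 57.5%. The cathepsin genes Ctsb, Ctsa, Ctss, Ctsd, Ctsz and Ctsl, which degrade engulfed protein, read 8.10, 7.94, 7.22, 6.77, 6.76 and 6.48. The cathepsin genes Ctsc and Ctsf were moderate at 2.36 and 2.12. Ctsk of osteoclasts was low at -1.62, as were Ctsh at -3.93 and Ctse at -4.53, and the granule proteases Ctsg and Ctsw were not well above background. The membrane protein gene Lamp1 read 8.01 and Lamp2 3.48. Glycan and lipid hydrolases were high, with the alpha-galactosidase gene Gla at 7.63, Fuca1 at 5.60, Hexa at 5.23, the acid lipase gene Lipa at 4.97 and the acid sphingomyelinase gene Smpd1 at 3.57. Of the proton pump subunits, Tcirg1 read 6.42 and Atp6v1b2 5.99, and the osteoclast isoform Atp6v0d2 was low at -0.88. The lysozyme genes Lyz1 and Lyz2 read 7.70 and 7.05, and as close paralogs their probes may not separate them.

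Lamp1 (8.01) and Gla (7.63) are shown with CACGTGAC in capitals, the E-box that TFEB and its relatives bind in lysosomal genes. It begins 28 bases before the start in Lamp1 and 196 before it in Gla, where it reads on the opposite strand.
Lamp1, chr8:13159083-13159190, plus strand: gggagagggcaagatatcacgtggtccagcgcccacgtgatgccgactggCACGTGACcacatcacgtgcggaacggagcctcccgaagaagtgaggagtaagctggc
Gla, chrX:134601144-134601251, minus strand: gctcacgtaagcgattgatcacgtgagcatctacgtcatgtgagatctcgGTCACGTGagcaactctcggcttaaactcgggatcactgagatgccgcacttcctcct

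Genes of the oxidative burst, of antioxidant defence and of iron storage were abundant by signal. Of 39 genes 23 were high (59%, beside 18% of all named genes), 7 moderate, 5 low and 4 not well above background (median 3.86). The called share was 89.7%, beside 57.5%. The phagocyte NADPH oxidase was represented by its membrane subunits Cyba (7.54) and Cybb (3.12), its cytosolic subunits Ncf4 (6.81) and Ncf1 (4.03) and its GTPase Rac2 (6.21), all high. Of its relatives, Nox1 was low at -2.84 and Nox4 was not well above background. The ferritin chain genes Fth1 and Ftl1 read 9.05 and 8.91, and the iron exporter gene Slc40a1 was low at -2.72. The haem-degrading enzyme gene Hmox1 read 4.58. The superoxide dismutase genes Sod1 and Sod2 read 8.13 and 1.55, and the peroxiredoxin gene Prdx1 7.92.

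Metabolic enzymes split between glycolysis and the inducible immune enzymes. Of 42 genes 16 were high (38.1%, beside 18% of all named genes), 7 moderate, 7 low and 12 not well above background (median 1.48). Together 71.4% were called, beside 57.5%. The glycolytic genes Ldha, Pkm and Hk1 read 9.35, 9.33 and 5.69, the last with a second probe at -4.82, and the glucose transporter gene Slc2a1 read 5.05. The inducible nitric oxide synthase gene Nos2 was low at -1.52. Gch1 and Spr, which make its cofactor tetrahydrobiopterin, were high at 3.80 and 3.14. Of 2 arginine transporter genes, Slc7a1 read 5.32 and Slc7a2 was not well above background at -7.22. Acod1, the itaconate-making enzyme, was moderate at 1.60. The polyamine genes Odc1, Srm and Sms read 5.63, 6.11 and 4.99. Genes used as marks of alternative activation, Arg1, Chil3 and Retnla, were not well above background, nor were the tryptophan-degrading enzyme genes Ido1 and Ido2.

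Eicosanoid pathway genes were high about as often as all named genes (20%, beside 18%), and 66.7% were called, beside 57.5%. Of 30 genes 6 were high, 9 moderate, 5 low and 10 not well above background (median -0.21). Pla2g4a, which releases arachidonic acid, was high at 4.68. On the leukotriene branch, Alox5ap, Alox5 and Lta4h read 5.40, 3.13 and 2.75. On the prostaglandin branch, the constitutive cyclooxygenase gene Ptgs1 read 1.14 and the inducible Ptgs2 -0.47. The prostaglandin E synthase genes Ptges3 and Ptges read 6.58 and 4.72, the latter with other probes at -2.28 and -3.56. The lipoxygenase genes Alox12 and Alox15 and the prostacyclin synthase gene Ptgis were not well above background.

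Lipid handling genes included 18 of 36 high (50%, beside 18% of all named genes). Another 8 were moderate, 8 low and 2 not well above background (median 2.86), so 94.4% were called, beside 57.5%. The lipoprotein lipase gene Lpl read 7.70, and the fatty acid synthesis genes Fasn and Scd2 7.08 and 6.98. Cholesterol synthesis was represented by Sqle at 5.54 and Hmgcs1 at 5.18. The cholesterol exporter gene Abcg1 was high at 4.05 and Abca1 low at -1.30. The apolipoprotein genes Apoe, Apoc2 and Apoc1 read 1.03, -2.60 and -4.62.

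Extracellular proteases and their inhibitors spread over every band. Of 34 genes in that list 9 were high, 3 moderate, 8 low and 14 not well above background (median -3.90). Well above background were 58.8%, beside 57.5% of all named genes, and 26.5% were high, beside 18%. The cystatin C gene Cst3, a cathepsin inhibitor, read 8.75 and 8.65. Membrane proteases were represented by Adam15 at 7.11, Adam8 at 6.47 and the TNF-releasing enzyme gene Adam17 at 2.86. The matrix metalloproteinase genes Mmp2, Mmp3, Mmp9, Mmp12, Mmp13 and Mmp14 were not well above background, and Mmp19 and Mmp8 were low at -0.93 and -4.58.

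Adhesion genes included 15 of 44 high (34.1%, beside 18% of all named genes). A further 8 were moderate, 11 low and 10 not well above background (median 0.38), so 77.3% were called, beside 57.5%. The integrin chain gene Itga4 read 6.99, with a second probe at 1.46, and its partner Itgb1 3.91. The tetraspanin genes Cd9, Cd82 and Cd81 read 6.08, 4.76 and 4.13. The talin gene Tln1 read 6.72. The matrix protein genes Fn1 and Thbs1 were not well above background.

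Antigen presentation and costimulation genes lay in all 4 bands. Of 34 genes 12 were high (35.3%, beside 18% of all named genes), 6 moderate, 7 low and 9 not well above background (median 0.95). Together 73.5% were called, beside 57.5%. On the class I side, the light chain gene B2m was high, the heavy chain genes H2-K1 and H2-D1 read 6.04 and 4.96, the tapasin gene Tapbp 5.61 and the immunoproteasome genes Psmb10, Psmb8 and Psmb9 5.91, 3.89 and 3.64. The peptide transporter genes Tap2 and Tap1 read 3.04 and 0.97, with second probes at -5.13, not well above background, and -1.76, and the peptide-trimming enzyme gene Erap1 was low at -1.39. The class I heavy chains are close paralogs and their probes may share transcripts. On the class II side, H2-Aa, H2-Ab1, H2-Eb1 and the class II transactivator gene Ciita were not well above background, H2-DMa and H2-DMb1 were low at -0.43 and -1.70, and the invariant chain gene Cd74 alone was high at 5.20. Of the costimulatory genes, Cd80 was moderate at 1.91 by 1 probe, while its other probes, at -5.12 and -5.34, were not well above background. Cd40 was low at -2.32, and Cd86 was not well above background.

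All 48 interferon-stimulated genes on the array were well above background, beside 57.5% of all named genes, although Ifnb1 was not called. Of the 48 genes 16 were high (33.3%, beside 18%), 17 moderate and 15 low (median 1.75). The antiviral synthetase genes Oas1a, Oas2 and Oas3 read 6.83, 4.93 and 1.20, the second of them with another probe at -2.57. The membrane restriction factor genes Ifitm3 and Bst2 read 6.77 and 4.72. The ubiquitin-like modifier gene Isg15 and its protease gene Usp18 read 3.82 and 3.52. In contrast to these, the IFIT genes Ifit1, Ifit2 and Ifit3 were low at -2.15, -2.22 and -1.62, as were Rsad2 (viperin) at -1.40 and the guanylate-binding protein genes Gbp2, Gbp5 and Gbp7 at -3.67, -4.73 and -3.77. Of 13 interferon alpha genes on the array 7 were called, all low (median -4.58). These genes are near-identical, and their probes may read a common transcript.

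The promoters of Oas1a (6.83), Ifitm3 (6.77) and Bst2 (4.72) are shown because each holds 2 matches, in capitals, to the interferon response motif, GAAA followed by any 2 bases and another GAAA. The matches begin 20 and 14 bases before the start in Oas1a and 130 and 124 bases before it in Bst2, overlapping in both. In Ifitm3 they begin at bases 3 and 20 of the transcript.
Oas1a, chr5:120907496-120907595, minus strand: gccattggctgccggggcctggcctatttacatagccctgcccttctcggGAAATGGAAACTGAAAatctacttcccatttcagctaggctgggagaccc
Ifitm3, chr7:141010715-141010792, minus strand: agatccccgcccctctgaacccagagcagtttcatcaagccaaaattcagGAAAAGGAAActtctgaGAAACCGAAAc
Bst2, chr8:71537537-71537652, minus strand: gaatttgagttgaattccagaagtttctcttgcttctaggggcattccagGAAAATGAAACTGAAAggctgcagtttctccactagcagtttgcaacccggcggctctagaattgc
The same motif also lay in promoters of low genes of the list, among them Ifit1 (-2.15), Ifit3 (-1.62), Rsad2 (-1.40) and Gbp5 (-4.73).

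Cell cycle genes were abundant by signal. Of 45 genes 31 were high (68.9%, beside 18% of all named genes), 9 moderate, 3 low and 2 not well above background (median 4.67). Called in all were 95.6%, beside 57.5%. The replication genes Mcm6, Pcna and Mcm3 read 7.22, 6.74 and 6.56, the proliferation marker Mki67 6.13, and the mitotic genes Birc5, Ccnb2, Aurka and Plk1 6.64, 6.10, 5.88 and 5.36. Of the D cyclins, Ccnd1 and Ccnd3 were high at 5.08 and 4.87, and Ccnd2 low at -4.54. The inhibitor genes Cdkn2a and Cdkn2b, neighbours that encode INK4 proteins, were not well above background.

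RAW264.7 cells can be turned into osteoclasts by RANKL. Of 21 genes of that lineage 17 were called (81%, beside 57.5% of all named genes) and 5 high (23.8%, beside 18%). Another 6 were moderate, 6 low and 4 not well above background (median 0.18). The RANK receptor gene Tnfrsf11a read 4.54, the carbonic anhydrase gene Car2 5.31 and the fusion protein genes Dcstamp and Ocstamp 3.15 and 0.67. Nfatc1, the master factor of osteoclasts, was moderate at 2.36, as was the tartrate-resistant phosphatase gene Acp5 at 1.72. The calcitonin receptor gene Calcr and Itgb3 were low at -4.59 and -4.81.

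Genes that mark macrophages resident in tissues were mostly dim. Of 30 genes none was high, 2 were moderate, 9 low and 19 not well above background (median -6.91). The called share was 36.7%, beside 57.5% of all named genes, of which 18% were high. The microglial genes Tmem119, P2ry12, Sall1 and Gpr34, the Kupffer cell gene Clec4f, the alveolar gene Siglecf and the perivascular genes Lyve1 and Folr2 were not called. Cd5l, a macrophage survival factor, was low at -4.07, and Olfml3 of microglia at -4.02.

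The gene that the series targets was bright in these control siRNA cells. Ruvbl2 read 5.01, brighter than 93.7% of the named genes, with a second probe at -1.61. Its partner Ruvbl1 read 5.56, brighter than 95.6%. Reference genes of the cell's basic functions were high in 30 of 32 cases (median 7.41), the exceptions being the transferrin receptor gene Tfrc at 2.38 and the TATA-binding protein gene Tbp at 1.28.

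Gene families give the scale at its ends. Of 101 genes with symbols beginning Rpl or Rps, 95 (94.1%) were well above background and 85 high (median 8.43). This set was taken by symbol alone, so it can hold genes that are not cytosolic ribosomal proteins. All 78 mitochondrial ribosomal protein genes were called, as were 39 of 40 proteasome subunit genes and 45 of 46 complex I genes. Families used in sensory or barrier tissues lay at the other end. Of 1080 odorant receptor genes 103 (9.54%) were called, 1 of them high (Olfr1466 3.58), beside 17 of 258 vomeronasal receptor genes (6.59%), 2 of 43 beta-defensin genes (4.65%) and 14 of 54 keratin genes (25.9%). Zinc finger protein genes of the Zfp series were frequent but dim, with 315 of 377 (83.6%) called and 32 (8.49%) high.

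Calls on the other arrays were nearly the same, given here as a count over all 3 conditions together. Of the 13175 genes called at rest, 12478 (94.7%) were also called on each of the other 3 arrays, and of the 9736 genes not called, 8946 (91.9%) were called on none of them. All 4115 high and all 4521 moderate genes were called on every array, and 84.6% of the 4539 low genes. The probes and the slide are shared between arrays, so this does not replace replicates.

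Promoter letters were summarised by band. RefSeq promoters (GRCm38.p6, from 250 bases before to 50 after the transcript start) were matched by symbol for 18077 of the genes, with 22054 promoters. The median number of CpG dinucleotides per 300 bases was 21 in the high band, 21 in the moderate band, 12 in the low band and 5 for genes not well above background. Median GC content in the same order was 60.7%, 61%, 57% and 50.3%. On either strand, the ETS motif CCGGAAGT lay in 10.5% of promoters in the high band, 8.38% in the moderate band, 4.53% in the low band and 1.05% of the rest, beside 3.89% of all 32851 promoters of the table. The TATA box TATAAA, searched on the gene's strand from 40 to 15 bases before the start, lay in 1.38%, 0.73%, 2.47% and 3.81% in that order. These are descriptions of sequence with no test, and several promoters of a gene overlap.

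Motifs of the promoters printed above were looked up in the lists. GAGGAAGT lay in 3.26% of promoters in the high band and 2.63% of those not well above background, beside 3.20% of the whole table. It lay in 18.8% of promoters of pattern recognition genes (6 of 25 genes) and 15.8% of promoters of ITAM and ITIM signalling genes (5 of 30), and in 2 of 21 macrophage marker genes. The interferon response motif, GAAA followed by any 2 bases and another GAAA, lay in 49.0% of promoters of interferon-stimulated genes (22 of 39 genes), beside 3.44% of the table. CACGTGAC lay in 21.8% of promoters of the lysosomal list (12 of 47 genes), beside 2.25% of the table. All of these were searched on both strands, and a match is a run of letters and not a shown binding site.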

How the data were processed

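Cy3 intensity values were used as deposited. Per the file headers the authors' processed signal is a spot's intensity after background subtraction and detrending, not normalized between arrays, read with Agilent Feature Extraction 11.5.1.1 (the submitters' processing notes name 11.0). The deposited value table equalled it at all 62976 spots. Spots marked as population outliers (64) were left out and repeat spots averaged. Symbols came from RefSeq accessions. The array annotation names build mm9 and the gene table GRCm38.p6, so gene positions are not given. A gene counted as well above background if any of its probes did.

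The members and the 38 gene lists (988 different genes with a probe) were chosen with earlier results of these data known. The genes named were drawn from the 30 brightest, the 6 brightest, the dimmest called and the uncalled members of each list, a panel of 14 genes, and other list members where a group is described, and not all of these are named. List genes without a matched probe (Clec7a, Tnfsf13, Cxcl11, Duox2, Mx1, Mx2, Ifitm2 and Ly6g) were not analysed here. The files used held no mean signal and no gene name column, so normexp (limma 3.58.1, R 4.3.3, offset 50) ran on median signals, an alternative chosen after seeing the data, and symbols from a gene name column were not tried. Other alternatives changed the spots, the probe standing for a gene, the detection call, the centre and the source of values. Python 3.11.15 with pandas 2.3.3 and numpy 2.4.6 was used, and the steps were tested on simulated data.

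Some members of the lists are counted but not reported by name here.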

Additional observations from a re-analysis of the deposited data

Results flagged for a closer look

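A signal was present in probes that no gene description above uses. Of 23611 probes without a gene symbol, 44.4% (10480) were well above background, beside 1 of 308 negative control spots, and 1202 of them reached a level of 3 or more. By kind of annotation, 51.8% of 7284 probes for Ensembl transcripts were called, 46.2% of 4450 probes for genomic intervals, 41.0% of 7540 probes for cDNA or EST accessions and 32.5% of 2892 probes for RefSeq accessions outside the gene table. The brightest probe of the array, at 10.44, was among the unnamed ones.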

How the results depend on the processing

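The number of genes well above background, 13175, was 13167 with the probe of the highest mean over the 4 arrays, 13023 with the median of a gene's probes, 16541 with the positive and significant call and 12223 with a level of at least -4 required. With the 75th percentile over probes well above background, which moves every level down by a constant, the high band held 1144 genes in place of 4115, and 135 list genes in place of 333. The count of high members then stayed within 1.5 times in 16 of 38 lists. Among the others, TLR signalling had 0 in place of 10, lineage transcription factors 1 in place of 14 and pattern recognition receptors 1 in place of 8. The high band held 3784 genes after normexp and 2924 with the median of a gene's probes, and all of these were among the 4115. Of the 38 lists, the count of high members stayed within 1.5 times for 35 with the median of probes. The exceptions were TLR signalling (5 in place of 10), the macrophage check (4 in place of 7) and dendritic cell markers (0 in place of 1). The positive and significant call moved the count of called genes by more than that in 7 lists, cytokines among them (48 in place of 31). The deposited value table and keeping outlier spots changed no list count by more than 1.5 times. The levels of the 14 panel genes moved by more than the spot error in 12 after normexp and in 6 with the median of probes. Symbols from a gene name column were not tried. No paired analysis was possible because each group was 1 array. Below a level of about -4 the spot error of 0.44 limits the order of genes and the call.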
